A study of Mus musculus with 41 samples.

Results

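The comparison set thymic epithelial cells (TEC) of unoperated male C57Bl/6 mice aged 9 to 12 months against TEC of unoperated young males aged 5 to 6 weeks, across all genes. It was made of 6 of the 41 Illumina arrays of the series, chosen by their sample labels: 3 TEC Normal Aged arrays, called older below, and 3 TEC Normal Young arrays. TEC were sorted as CD45- EpCAM+ cells from the digested thymus, and neither group carried an engineered allele or had been operated on. The other 18 TEC arrays came from castrated or sham-operated males of 9 to 12 months at day 4, 7 or 20 after surgery, and 17 arrays came from the CD45- EpCAM- stroma (nonTEC). Whether each array stands for its own animal or for a pool is not stated in the labels. P-values therefore speak only of scatter between arrays, which may be technical, and 3 arrays a group restrict precision. The study design names changes of gene activity in the ageing thymus as the question.

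TEC form the scaffold in which T cells develop. Cortical TEC attract precursors, supply Notch ligands and cytokines and present the peptides on which thymocytes are positively selected, whereas medullary TEC display antigens of other organs, many of them switched on by the regulator Aire, so that self-reactive T cells are removed. Some medullary cells take on programmes of other tissues, such as skin, gut, muscle, tuft or neuroendocrine cells. The thymus shrinks early in life, and both its epithelium and its output of T cells decline with age.

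The arrays carried the transcripts of the sorted cells. Krt8, a keratin of simple epithelia, was at 13.15 ± 0.37 in older and 13.35 ± 0.02 in young TEC (log2 intensity, SD, n = 3 each), and Krt14, a keratin of basal and medullary cells, at 14.10 ± 0.08 in older and 14.13 ± 0.22 in young TEC. None of 8 tested epithelial identity markers passed the threshold, in a comparison in which 18.7% of all genes did. Epcam itself, the sorting marker, was not analysed here, and Foxn1, the master regulator of TEC, lay below the level needed for testing in both groups (4.76 in older and 5.21 in young TEC). The cortical proteasome gene Psmb11 was also dim, at 6.69 ± 1.33 in older and 5.73 ± 0.18 in young TEC.

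The older arrays differed among themselves far more than the young ones did. Over all tested genes the correlation was 0.910 between older arrays 1 and 2, 0.893 between 1 and 3 and 0.800 between 2 and 3, against 0.979 to 0.987 between young arrays. The median SD of a gene was 0.40 over the older and 0.18 over the young arrays, and 6671 of 8277 genes varied more among the older ones. Older array 1 correlated with the young arrays at 0.940 to 0.941, older array 2 at 0.849 to 0.870 and older array 3 at 0.894 to 0.912. The age label of older array 3 is worded differently from those of arrays 1 and 2, though it gives the same 9 to 12 months.

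Group means were fitted in limma over all 24 TEC arrays, which share 1 estimate of spread per gene. That estimate takes all groups as equally variable, although the older arrays varied more than the young ones. SE and p can therefore be too small for genes that varied widely among the older arrays, also in the leave-one-out fits below. A gene was called at a Benjamini-Hochberg adjusted p under 0.05. At that threshold 980 genes rose (11.8% of the 8277 tested) and 566 fell (6.84%) in older TEC, 487 of them by 2-fold or more (241 rises and 246 falls). The older and young arrays did not overlap at all in 2211 genes (26.7%), 1449 of them higher (17.5%) and 762 lower (9.21%) in older TEC. The calls depended on which arrays entered: 557 genes (6.73%), 400 higher (4.83%) and 157 lower (1.9%), were called in each of the 6 fits that left out 1 of the older or young arrays. Without older array 3 the fit called 1137 genes higher (13.7%) and 1272 lower (15.4%), whereas without young array 2 it called 516 and 254. With the 18 operated TEC arrays taken out of the fit, limma called 8 genes (0.0967%), while 1503 (18.2%) had an unadjusted p under 0.05. In the text below, differences are log2 values of older minus young ± SE from the fit of 24 arrays, p is adjusted over all 8277 genes, and "in all 6 leave-one-out fits" marks calls made in each of those 6 fits. Counts of called list members are to be read against the shares of all genes, 11.8% higher and 6.84% lower. In 200 of the 980 rises the young mean, and in 117 of the 566 falls the older mean, lay under 6.68, the level used as the cutoff for testing, so that these genes were tested only through groups in which they were brighter. No detection measure was used here, and for such genes the size of a difference is uncertain because 1 side is dim.

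**Figure D1:**
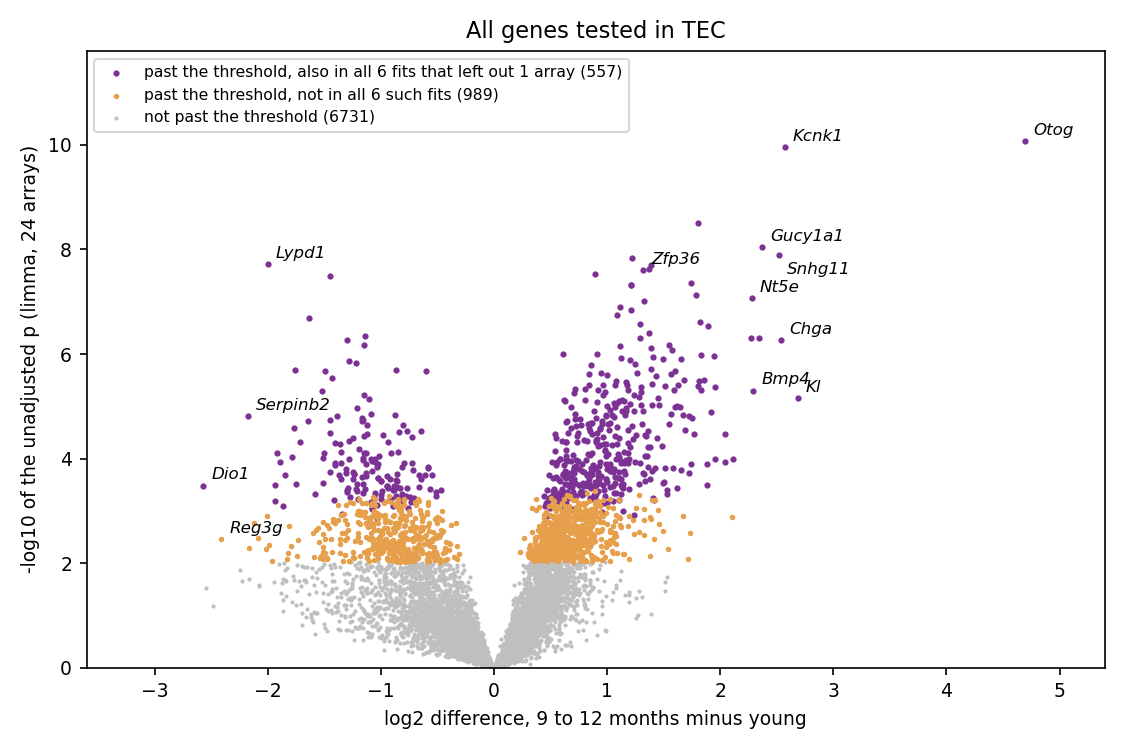
Each point is 1 of the 8277 genes tested in TEC, with its log2 difference of 9 to 12 months minus young on the x axis and the -log10 of the unadjusted limma p on the y axis. Genes past the adjusted threshold are split by whether they are among the 557 also called in all 6 leave-one-out fits, and Otog stands alone at the right with Kcnk1 beside it in height.

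**Figure D2:**
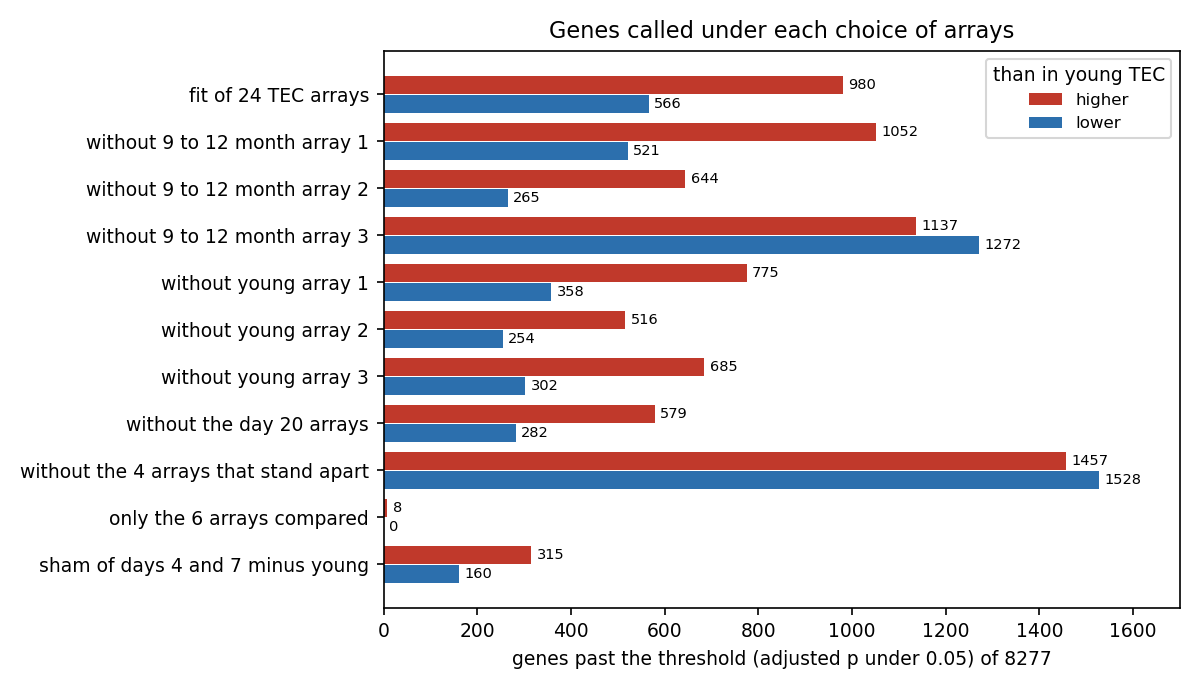
Bars count the genes called higher or lower than in young TEC, in the fit of 24 arrays and under other choices of arrays. Without older array 3 there are 1272 lower genes, against 566 with it, and fitting the 6 arrays alone leaves 8 higher and 0 lower.

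The largest fitted rise was that of Otog, which codes for otogelin, a large secreted protein of the inner ear membranes. It was at 11.80, 10.18 and 10.51 on the 3 older arrays, against 6.43, 5.97 and 5.99 on the 3 young arrays. Every older array was bright and every young one lay under the cutoff, and the fitted difference was 4.70 ± 0.38 (adjusted p = 4.53e-07). Kl, which encodes klotho, a co-receptor for endocrine FGFs and the source of a circulating factor linked to ageing in mice, had 9.23, 7.43 and 8.70 on older and 5.74, 5.71 and 5.85 on young arrays. The older arrays spread over a wide range without reaching the young ones (difference 2.69 ± 0.44, adjusted p = 0.000606). Kcnk1, a 2-pore potassium channel gene, was at 10.45, 10.29 and 10.08 in older and 7.50, 7.57 and 8.04 in young TEC. Its groups lay apart and were each compact (2.57 ± 0.21, adjusted p = 4.53e-07). Another probe of Kcnk1 differed by 2.49, while for Chga, described next, 2 other probes differed by 2.01 and 0.60.

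Chga encodes chromogranin A, the core protein of neuroendocrine secretory granules. It was at 14.32, 13.61 and 14.19 in older TEC and lay at 11.38, 11.80 and 11.34 on young arrays, with no overlap (2.53 ± 0.35, adjusted p = 0.000138). Snhg11, a noncoding host transcript of small nucleolar RNAs, was at 9.94, 9.88 and 9.86 in older and 7.73, 7.32 and 7.07 in young TEC, nearly the same on all older arrays (2.52 ± 0.27, adjusted p = 2.00e-05). Gucy1a1, a subunit of the nitric oxide receptor guanylate cyclase, was at 8.59, 8.93 and 8.21 in older and 6.33, 6.23 and 6.06 in young TEC (2.37 ± 0.25, adjusted p = 1.86e-05). Bmp4, the morphogen that patterns the pharyngeal pouches and supports TEC, was at 8.26, 8.23 and 8.05 in older and 6.05, 5.91 and 5.71 in young TEC. Its older arrays were within 0.3 of each other and all far above the young ones, which were under the cutoff (2.29 ± 0.37, adjusted p = 0.000486).

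Further down the list, Trim9, a ubiquitin ligase gene, rose by 2.34 ± 0.32, Nt5e, the adenosine-producing surface enzyme CD73, by 2.28 ± 0.28 and Fam107a by 2.27 ± 0.31. The LIM domain gene Zfp185 rose by 2.12 ± 0.44, the alarmin gene Il33 by 2.04 ± 0.43, the phosphocholine transferase gene Pcyt1b by 2.04 ± 0.38 and the glutamate transporter gene Slc1a1 by 1.96 ± 0.40. These 14 rises were called in all 6 leave-one-out fits. In 11 of them (Otog, Kl, Gucy1a1, Trim9, Bmp4, Nt5e, Fam107a, Zfp185, Il33, Pcyt1b and Slc1a1) the young mean was under the cutoff, from 4.82 for Slc1a1 to 6.63 for Trim9. The same was so of Tbx1, Nr1d1 and Mzb1, named below. Spink8, a protease inhibitor gene, rose by 2.11 ± 0.56, a call lost without young array 1 (1.84). Of the 8 genes called when only the 6 arrays were fitted, 7 have just been named or are immediate early or signalling genes described below (Otog, Kcnk1, Chga, Snhg11, Gucy1a1, Bmp4 and Zfp36). The other is Nfkbiz, an inhibitor-like regulator of NF-kB target genes, which is named for that reason after its values were seen. It was at 11.91, 11.98 and 11.88 in older and 10.70, 10.75 and 10.46 in young TEC, again without overlap (1.29 ± 0.18, adjusted p = 0.000138).

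**Figure D3:**
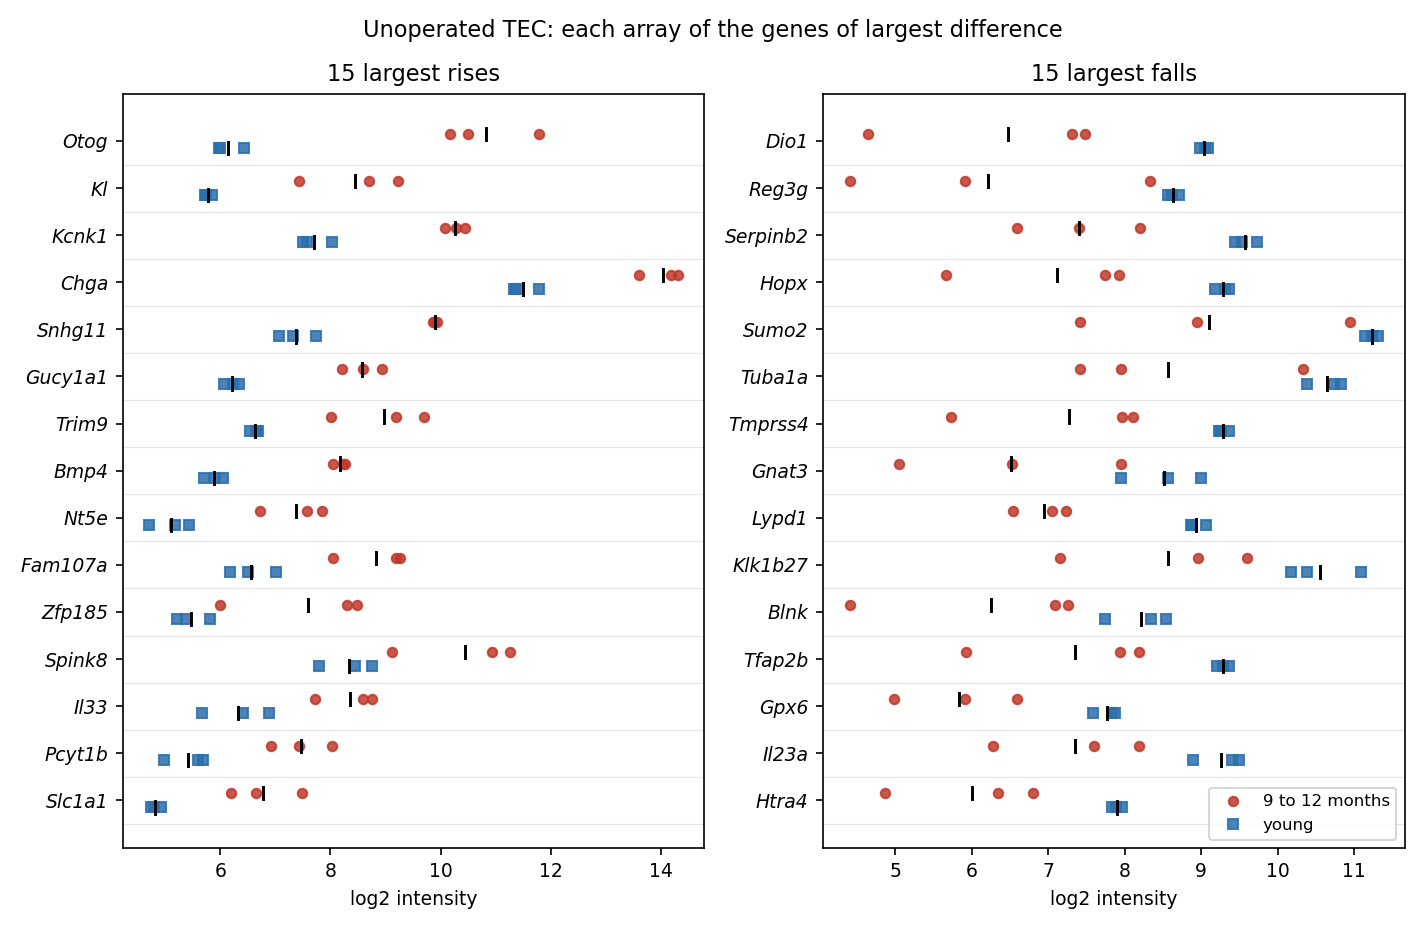
Points are the log2 intensities of single arrays for the 15 largest rises (left panel) and the 15 largest falls (right panel) among called genes whose groups do not overlap, with the older arrays drawn above the young ones in each row and black ticks at the group means. Young arrays cluster tightly in nearly every row, while the older arrays of the falling genes are spread widely, as for Dio1 from 4.64 to 7.48.

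The falls were less uniform over the older arrays. Dio1, the deiodinase that activates thyroid hormone, was at 7.48, 4.64 and 7.31 in older and 8.98, 9.05 and 9.09 in young TEC. All older arrays were lower, array 2 by far the most (-2.57 ± 0.59, adjusted p = 0.00632). Serpinb2, an inhibitor of plasminogen activators, was at 8.20, 7.40 and 6.59 in older and 9.45, 9.74 and 9.54 in young TEC (-2.18 ± 0.38, adjusted p = 0.00094). Lypd1, a GPI-anchored modulator of nicotinic receptors, had the narrowest range over older arrays among the 15 largest falls, at 6.54, 7.23 and 7.04 in older and 8.88, 8.86 and 9.07 in young TEC (-2.0 ± 0.22, adjusted p = 2.03e-05). The transcription factor gene Tfap2b fell by 1.94 ± 0.44, the glutathione peroxidase gene Gpx6 by 1.93 ± 0.48, the protease gene Htra4 by 1.89 ± 0.39 and Il23a, the p19 subunit of interleukin 23, by 1.91 ± 0.39. These 7 falls were called in all 6 leave-one-out fits. For Dio1, Gpx6 and Htra4 the older mean was under the cutoff, as it was for Reg3g, Gnat3, Blnk, Csn1s1, Cnfn, Pomc, Reg3a and Krt13 among the falls named below.

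The other 8 of the 15 largest falls each lost the call without at least 1 of the arrays. Reg3g, an antimicrobial lectin gene of gut epithelium, was at 5.91, 4.41 and 8.33 in older and 8.56, 8.62 and 8.71 in young TEC (-2.41 ± 0.73), and held only without older array 3 (-3.47), not without older arrays 1 (-2.26) or 2 (-1.51) or any young array (-2.37 to -2.44). Hopx, a homeodomain gene, fell by 2.17 ± 0.69 and lost the call without older array 2 (-1.44) or any young array (-2.13 to -2.22). Sumo2 fell by 2.13 ± 0.59 and lost it without older array 2 (-1.28), while Gnat3, the taste and tuft cell G protein gustducin, fell by 2.004 ± 0.53 and lost it without older array 2 (-1.27) or young array 3 (-1.76). The tubulin gene Tuba1a (-2.09 ± 0.63) lost it without older array 2 (-1.78), older array 3 (-1.51) or any young array (-1.998 to -2.22). The protease gene Tmprss4 (-2.02 ± 0.64), the kallikrein gene Klk1b27 (-1.99 ± 0.62) and the B-cell adaptor gene Blnk (-1.96 ± 0.68) lost it without older array 3 (-1.25, -1.28 and -1.04) or any young array (-1.98 to -2.05, -1.72 to -2.17 and -1.80 to -2.19).

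In the FGF and EGF receptor list Kl, Egfr, Errfi1 and Dusp6 rose and Fgf21 and Epgn fell, while 8 of the 14 tested members did not pass. FGFs act on epithelial cells through receptor tyrosine kinases, endocrine FGFs need a klotho co-receptor, and the EGF receptor drives the same kinase cascade, which in turn induces its own inhibitors. Among the ligands, Fgf21, an endocrine FGF made in quantity by TEC, was at 12.23, 11.98 and 12.43 in older and 13.04, 13.07 and 13.13 in young TEC. All older arrays were lower, and Fgf21 fell by 0.87 ± 0.13 (adjusted p = 0.000317). The EGF family ligand gene Epgn fell by 1.04 ± 0.28, a call lost without older array 2 (-0.64) or young array 2 (-1.01). Among the receptors, Egfr was at 10.45, 10.57 and 10.29 in older and 9.30, 9.11 and 9.56 in young TEC and rose by 1.12 ± 0.14 (adjusted p = 5.59e-05), beside the co-receptor gene Kl. Other Egfr probes differed by 1.05, 0.32 and 0.25.

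The feedback inhibitor genes Errfi1 and Dusp6 also rose. Errfi1, which binds and silences the EGF receptor, was at 12.70, 12.86 and 12.07 in older and 11.72, 11.55 and 10.87 in young TEC (1.17 ± 0.20, adjusted p = 0.000776). Dusp6, the phosphatase that switches off ERK, was at 11.27, 11.39 and 11.37 in older and 10.51, 10.47 and 10.18 in young TEC (0.95 ± 0.17, adjusted p = 0.00106). Of the 14 tested members of the list, 4 rose (Kl, Egfr, Errfi1 and Dusp6) and 2 fell, with a median difference of 0.50, against 0.01 over all genes. The shares over all genes were 11.8% higher and 6.84% lower. The 4 rises and the fall of Fgf21 were called in all 6 leave-one-out fits.

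In the TGF-beta and BMP list Bmp4 and the receptor gene Tgfbr2 were the members called in all 6 leave-one-out fits. Of 22 tested members 5 rose and 2 fell (median 0.12), where 11.8% of all genes rose and 6.84% fell. Beside Bmp4, the type II receptor gene Tgfbr2 was at 10.48, 10.20 and 9.30 in older and 9.08, 8.75 and 8.75 in young TEC (1.13 ± 0.26, adjusted p = 0.00649). Smad3, Smad5 and Tgfbr1 rose, and the BMP antagonist gene Grem1 and the matrix gene Tgfbi fell, each in only part of those fits. The list gave 2 rises without older array 2 or young array 2, 3 without young array 3 and 7 without older array 3, and its falls numbered from 0 to 3.

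In the Wnt list 4 of 19 tested members rose and 1 fell (median 0.13), where 11.8% of all genes rose and 6.84% fell. Wls, the carrier that brings Wnt proteins to the cell surface, rose by 0.86 ± 0.13 and Porcn, the enzyme that lipid-modifies them, by 0.88 ± 0.19, both in all 6 leave-one-out fits. The ligand gene Wnt7b and the feedback gene Axin2 rose and Kremen2, a receptor of Dickkopf proteins, fell, in part of the fits, with 2 to 7 rises and 0 to 3 falls, fewest rises without older array 2 or young array 2 and most without older array 3. In the Notch list 3 of 14 rose and 2 fell (median 0.44). The coactivator gene Maml2 was at 8.92, 8.93 and 9.12 in older and 7.82, 7.34 and 7.83 in young TEC and rose by 1.33 ± 0.16 (adjusted p = 4.40e-05). Hes6, a Hes family regulator gene, fell by 0.72 ± 0.15, while 2 other probes of it differed by -2.38 and -2.40. Notch3 and Numb rose and the ligand-like gene Dlk1 fell, in 4, 4 and 5 of the leave-one-out fits, Dlk1 losing the call without older array 2 (-0.77). The Notch rises numbered 6 without older array 3 and 1 without young array 2.

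Cytokine signalling split in opposite directions. IL-6 family cytokines signal through gp130 and STAT3, which induces both the inhibitor Socs3 and the secreted acute-phase proteins. Socs3 was at 13.37, 13.62 and 13.31 in older and 12.16, 12.27 and 11.66 in young TEC, with no overlap (1.40 ± 0.20, adjusted p = 0.000225), and Il6st, which encodes gp130, was at 8.34, 9.09 and 8.53 in older and 7.69, 7.73 and 7.80 in young TEC (0.92 ± 0.20, adjusted p = 0.00487). The acute-phase genes were lower instead. Saa1, serum amyloid A, was at 9.75, 9.05 and 10.15 in older and 11.32, 11.28 and 11.27 in young TEC (-1.64 ± 0.21, adjusted p = 7.64e-05), the young arrays lying within 0.1 of each other. Orm1, orosomucoid, fell by 1.22 ± 0.18 and the haptoglobin gene Hp by 1.36 ± 0.27, and Saa3 fell by 1.29 ± 0.37 in part of the leave-one-out fits. Lcn2, the siderophore-binding lipocalin that is also induced in the acute phase, went against these, at 11.43, 12.10 and 11.20 in older and 10.61, 9.93 and 10.32 in young TEC (1.29 ± 0.27, adjusted p = 0.0035). In all, 5 of 17 tested members rose and 4 fell (median 0.22), where 11.8% of all genes rose and 6.84% fell. Among these members, 4 rises and 3 falls were called in all 6 leave-one-out fits.

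Immediate early genes, which are induced within minutes by growth factors, stress or tissue digestion, gave 9 rises among 20 tested members and 0 falls (median 0.49). The shares over all genes were 11.8% higher and 6.84% lower. The RNA-decay factor gene Zfp36 was at 14.48, 14.58 and 14.51 in older and 13.31, 13.31 and 13.001 in young TEC (1.31 ± 0.15, adjusted p = 2.03e-05). The AP-1 subunit gene Fosb was at 11.42, 11.60 and 11.94 in older and 10.60, 9.89 and 9.68 in young TEC (1.60 ± 0.27, adjusted p = 0.000744), and Jun at 11.86, 12.62 and 11.84 in older and 11.13, 10.83 and 10.45 in young TEC (1.30 ± 0.21, adjusted p = 0.000499). In each of these the older arrays lay above all young arrays. Junb rose by 0.99 ± 0.19 and the survival gene Ier3 by 1.15 ± 0.19. These 5 were called in all 6 leave-one-out fits, and Klf2, Atf3, Fosl2 and Egr2 in part of them. The list gave 9 rises without older array 1 or young array 1, 8 without older array 3, 7 without young array 2, 6 without older array 2 and 5 without young array 3. Fos (-0.64 ± 0.78) and Egr1 (0.28 ± 0.12), which many stimuli induce together with these, did not pass. In sham TEC of days 4 and 7, set against the same young arrays, 3 of the 20 rose, where 3.81% of all genes did.

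Promoters of these genes were searched for letters bound by the factors that usually induce them, since members rose together. The windows were 250 bases before to 50 after each gene's start in RefSeq (GRCm38.p6), read on both strands. The CArG box, the site of serum response factor, was found in 488 of 27025 genes (1.81%) and in 2 of the 16 tested immediate early genes with a window, Egr2 and Zfp36. The STAT-type palindrome TTCNNNGAA was found in 2582 genes (9.55%) and in 1 of the 16, Zfp36. Socs3, which is not on the immediate early list, also has it. The cAMP response element TGACGTCA was found in 549 genes (2.03%) and in 1 of the 16, Dusp1, but in 0 of the 9 that rose. The 250 bases before the start of Zfp36 and Socs3, both called in all 6 leave-one-out fits, are printed with the CArG box of Zfp36 and the STAT-type palindrome of Socs3 in capitals. Zfp36 spans chr7:28379229-28379478 and Socs3 spans chr11:117969367-117969616, both on the minus strand.
Zfp36: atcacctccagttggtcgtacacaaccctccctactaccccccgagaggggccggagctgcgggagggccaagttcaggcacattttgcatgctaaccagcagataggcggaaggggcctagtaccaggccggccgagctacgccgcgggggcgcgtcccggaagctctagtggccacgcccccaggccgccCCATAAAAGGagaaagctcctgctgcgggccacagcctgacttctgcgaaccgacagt
Socs3: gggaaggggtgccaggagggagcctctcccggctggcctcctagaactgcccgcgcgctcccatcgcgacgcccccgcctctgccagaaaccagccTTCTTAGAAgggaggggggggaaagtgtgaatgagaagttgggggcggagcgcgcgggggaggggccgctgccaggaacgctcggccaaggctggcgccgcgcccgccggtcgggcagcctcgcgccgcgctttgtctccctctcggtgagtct
The CArG box of Zfp36 starts 58 bases before the gene's start and the palindrome of Socs3 starts 154 bases before it. These matches describe letters only, and binding was not measured.

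The clock list had 3 rises among 13 tested members and 0 falls (median 0.49), where 11.8% of all genes rose and 6.84% fell. Nr1d1, the repressor REV-ERB alpha, rose by 1.67 ± 0.44 and lost the call only without young array 3 (1.51). Per1 and Usp2 rose in 2 of the leave-one-out fits each, and without young array 3 none of the 13 was called. Among 16 tested genes of the androgen and glucocorticoid response 4 rose and 1 fell (median 0.29). Fkbp5, a chaperone gene induced by glucocorticoid and androgen receptors, was at 8.84, 9.06 and 8.99 in older and 8.46, 8.27 and 8.27 in young TEC (0.63 ± 0.14, adjusted p = 0.00432), and Errfi1 also belongs to this list. There were 2 rises without older array 2 or 3 or young array 2 or 3. The interferon and MHC class I list had 2 rises among 28 tested members (median 0.04). Irf1, an interferon-induced regulator, rose by 0.81 ± 0.13 in all 6 leave-one-out fits, while its other probes differed by 1.20, 0.29, 0.32 and 0.40, and the list gave 4 rises and 3 falls without older array 3.

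Antigens that depend on Aire were lower in older TEC, most of all on older array 2. Their mean over 16 tested members was 8.15, 7.40 and 9.19 on the older arrays 1 to 3 and between 9.24 and 9.37 on the young arrays. Arrays 1 and 2 were thus well below the young arrays, and array 3 was just below them. Of the 16, 11 fell and 0 rose (median -1.04, and all 16 differences negative), where 6.84% of all genes fell and 11.8% rose. Ambp, a liver protein gene, was at 7.70, 7.91 and 8.73 in older and 8.83, 9.26 and 9.28 in young TEC (-1.01 ± 0.21, adjusted p = 0.00295), and the sulfotransferase gene Sult1c2 fell by 0.91 ± 0.18. These 2 were called in all 6 leave-one-out fits. The milk and saliva genes Csn1s1 (-1.23), Csn2 (-0.58) and Dcpp1 (-1.09), the insulin gene Ins2 (-1.004) and the testis gene Fabp9 (-1.54) also fell, in 1 to 4 of those fits. The number of falls was 2 without older array 2, 4 without older array 1, 3 without each young array in turn and 15 without older array 3. Aire was at 11.82, 11.49 and 12.51 in older and 12.31, 12.18 and 12.06 in young TEC, with the groups overlapping (-0.24 ± 0.21, adjusted p = 0.442), while 2 further Aire probes differed by -1.78 and -0.37. Fezf2, the other regulator of tissue antigens, was at 12.95, 13.03 and 13.39 in older and 13.63, 13.38 and 13.40 in young TEC (-0.35 ± 0.14, adjusted p = 0.0904).

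Genes of cornified skin epithelium, which mark the last stages of medullary TEC, followed the same order of arrays. Their mean was 7.66, 7.23 and 8.65 on older arrays 1 to 3, against 8.69 to 8.86 on young arrays. Of 17 tested members 9 fell and 0 rose (median -0.87), where 6.84% of all genes fell and 11.8% rose. Cnfn, cornifelin, was at 5.94, 6.53 and 6.29 in older and 8.46, 7.59 and 7.96 in young TEC, low on all 3 older arrays (-1.76 ± 0.26, adjusted p = 0.000315). Krtdap, a keratinocyte differentiation gene, was at 10.52, 10.73 and 11.54 in older and 12.05, 12.04 and 12.17 in young TEC (-1.16 ± 0.24, adjusted p = 0.00314), and Dmkn, dermokine, fell by 0.82 ± 0.20. These 3 were called in all 6 leave-one-out fits. The loricrin gene Lor (-1.55), Calm4 (-1.51), Sprr1b (-1.03) and the kallikreins Klk7 (-1.46) and Klk8 (-1.13) fell in part of them, and the list gave 4 falls without older array 2 or young array 2 or 3, 6 without older array 1 or young array 1 and 13 without older array 3.

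Genes of gut and secretory epithelium showed 7 falls and 1 rise among 19 tested members (median -0.96), where 6.84% of all genes fell and 11.8% rose. The mean of the 19 was 8.19, 7.28 and 9.14 on the older arrays and 9.08 to 9.30 on the young arrays, so that older array 3 lay within the young range. Reg3a, an antimicrobial lectin gene, fell by 1.78 ± 0.37 and Zg16, a zymogen granule gene, by 1.41 ± 0.30, both in all 6 leave-one-out fits. Muc1, Tff2, Cdx1 and Sftpd fell in part of them, and the riser was Lcn2. The falls numbered 3 without older array 2 or young array 1 or 2, 4 without older array 1 or young array 3 and 16 without older array 3. Tuft cell genes gave 2 falls, Gnat3 and Chat, among 14 tested (median -0.50), neither of them in all 6 leave-one-out fits. The list gave 0 falls without older array 2 or young array 3, 1 without young array 1 and 10 without older array 3. Older array 3 lay within the young range for this list too, at 9.00 against 8.67 to 9.09.

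Among 18 neuroendocrine genes 3 fell and 1 rose (median -0.60), and the riser was Chga. Over all genes 6.84% fell and 11.8% rose. Pomc, the precursor of melanocortins, was at 6.90, 6.58 and 4.86 in older and 8.01, 8.04 and 7.87 in young TEC, lowest on older array 3, and fell by 1.87 ± 0.47 (adjusted p = 0.0109) in all 6 leave-one-out fits. Scg5 and Npy fell in 4 and 1 of them. The list gave 10 falls without older array 3 and 1 without older array 2 or young array 3. Of 14 keratins 2 fell and 0 rose (median -0.37). Krt13, a keratin of stratified mucosa, fell by 0.999 ± 0.23 in all 6 leave-one-out fits, and Krt79 fell by 1.27 ± 0.32, a call lost without older array 2 (-0.87). Falls numbered 1 without older array 2 and 6 without older array 3.

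**Figure D4:**
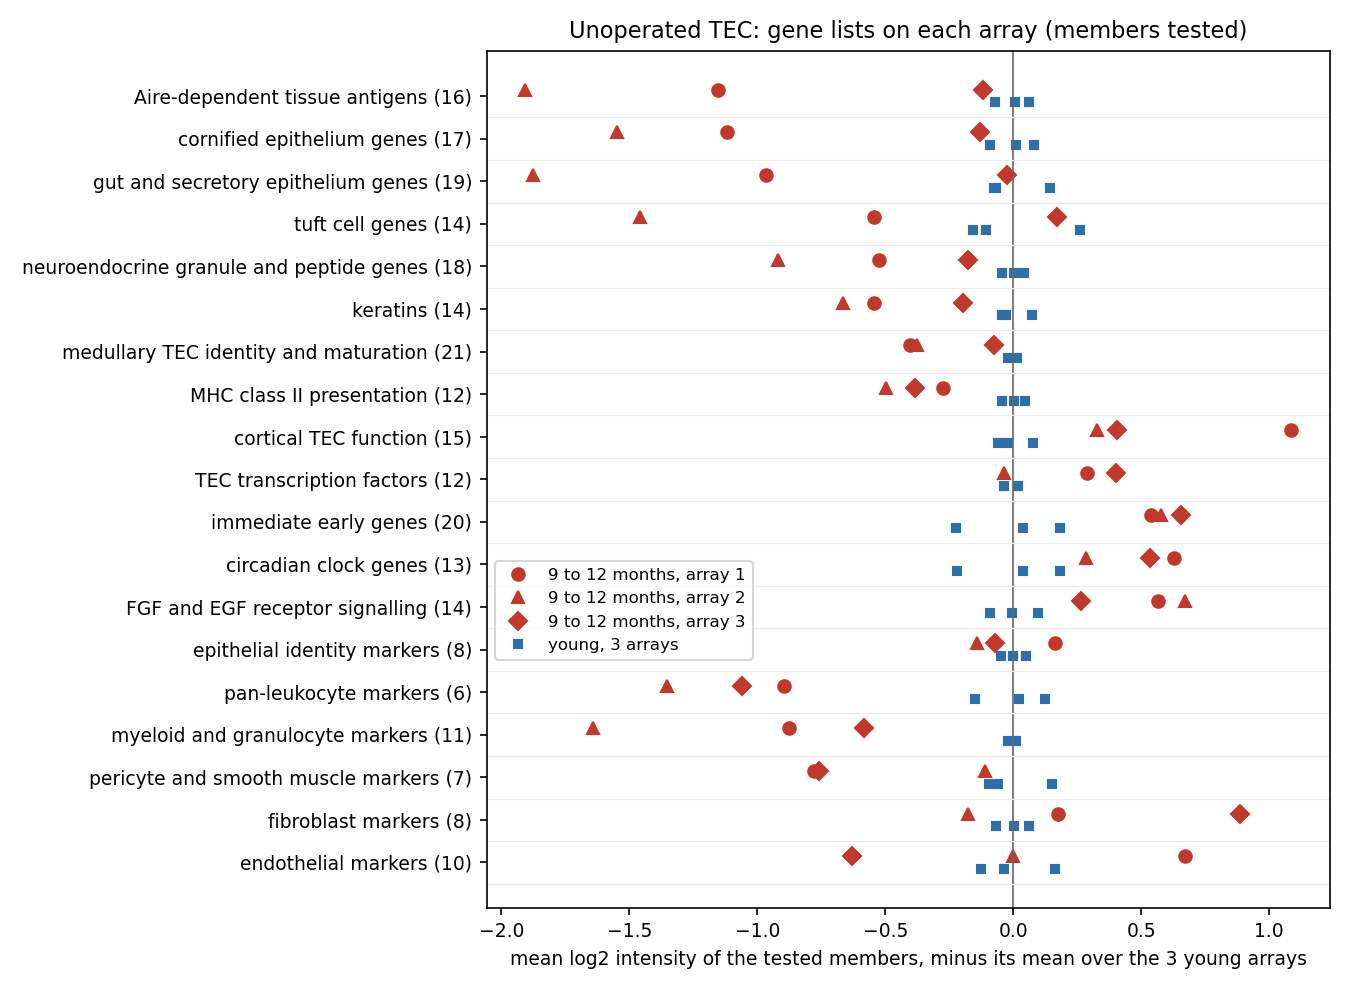
Each row is a gene list, with the mean log2 intensity of its tested members on each array minus the mean over the 3 young arrays. Red symbols are older arrays 1 to 3 and blue squares the young arrays. For the tissue antigen, cornified, gut and tuft cell lists older array 2 lies lowest and older array 3 close to the young arrays. In the immediate early, clock, leukocyte and myeloid lists older array 3 also lies well outside the young range.

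Genes of medullary TEC identity and maturation gave few calls. Their mean was 10.20, 10.23 and 10.53 on older arrays 1 to 3, against 10.59 to 10.62 on young arrays, with older array 3 again closest to the young ones. Of 21 tested members 2 fell and 1 rose (median -0.26), where 6.84% of all genes fell and 11.8% rose. Cd40, the receptor through which T cells mature medullary TEC, was at 11.38, 11.17 and 11.84 in older and 12.11, 12.22 and 11.999 in young TEC, with no overlap (-0.64 ± 0.14, adjusted p = 0.00523). Pdpn, podoplanin, a marker of junctional progenitors of the medulla, was at 12.17, 12.52 and 11.99 in older and 11.51, 11.65 and 11.55 in young TEC (0.66 ± 0.16, adjusted p = 0.00853). Both were called in all 6 leave-one-out fits. Tnfrsf11a, the receptor RANK, fell by 1.12 ± 0.36 but was called only without older array 3 (-1.26), with -1.02 to -1.19 in the fits that lost it, those without older arrays 1 or 2 or any young array. The costimulatory ligand gene Cd80 (-1.41 ± 0.51, adjusted p = 0.0578) and Cd86 (-0.07 ± 0.32, adjusted p = 0.899) did not pass. The list gave 5 falls without older array 3 and 1 without older array 2 or any young array.

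MHC class II genes, through which TEC present antigen to CD4 T cells, had 2 falls among 12 tested members (median -0.24). The share of falls over all genes was 6.84%. Ifi30, the lysosomal thiol reductase that prepares antigens, was at 10.05, 10.21 and 9.60 in older and 11.23, 10.92 and 10.71 in young TEC (-1.001 ± 0.25, adjusted p = 0.00916). H2-Oa, a class II chaperone subunit, fell by 0.44 ± 0.14 and was called only without older array 3 (-0.65). The antigen-binding chain gene H2-Aa was at 10.45, 6.33 and 11.09 in older and 11.45, 11.49 and 11.61 in young TEC. Older array 2 was far lower than all others, and the difference did not pass (-2.23 ± 0.90, adjusted p = 0.0871). The class II falls numbered 4 without older array 3 and 1 without any other array.

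Of the cortical list, Bmp4, Cd274, Igfbp5 and Cxcl12 rose. Of 15 tested members 4 rose and 0 fell (median 0.52), where 11.8% of all genes rose and 6.84% fell. The mean of the 15 was 10.40, 9.64 and 9.72 on the older arrays and 9.25 to 9.39 on the young arrays, older array 1 being the highest. Beside Bmp4, the coinhibitory ligand gene Cd274 was at 11.93, 12.07 and 12.23 in older and 11.03, 11.20 and 11.003 in young TEC (1.001 ± 0.25, adjusted p = 0.0101), and Igfbp5, an IGF-binding protein, at 13.64, 14.13 and 13.52 in older and 13.21, 12.80 and 13.22 in young TEC (0.69 ± 0.16, adjusted p = 0.00561), though 2 other Igfbp5 probes differed by 0.04 and 0.29. These 3 were called in all 6 leave-one-out fits. The precursor-attracting chemokine gene Cxcl12 was at 11.57, 10.73 and 9.75 in older and 9.73, 9.10 and 8.74 in young TEC and rose by 1.49 ± 0.43, a call lost without older array 1 (1.05), older array 2 (1.47), young array 2 (1.45) or young array 3 (1.27), and 2 other probes of it differed by 0.51 and 0.62. Psmb11 (0.96 ± 0.54, adjusted p = 0.223), the selecting protease gene Prss16 (0.52 ± 0.57, adjusted p = 0.544) and Ccl25 (-0.15 ± 0.26, adjusted p = 0.712) did not pass. The list gave 7 rises without older array 3 and 3 or 4 without any other array.

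Of the TEC transcription factors, Tbx1 and Trp63 were the rises called in all 6 leave-one-out fits, and Pax1, another pharyngeal regulator gene, did not pass (0.68 ± 0.40, adjusted p = 0.236). Of 12 tested members 5 rose and 1 fell (median 0.44), where 11.8% of all genes rose and 6.84% fell. Tbx1, a T-box factor of the pharyngeal apparatus, was at 6.93, 6.81 and 7.46 in older and 5.30, 5.54 and 5.71 in young TEC, where it was close to the floor of the arrays (1.55 ± 0.28, adjusted p = 0.00115). Trp63, the p63 factor that maintains epithelial stem cells, was at 12.29, 12.66 and 11.45 in older and 11.22, 11.14 and 11.28 in young TEC (0.92 ± 0.22, adjusted p = 0.00731). Both were called in all 6 leave-one-out fits. Eya1, a coactivator needed for thymus formation, rose by 0.84 ± 0.21 and lost the call without older array 2 (0.64), Meis1 and Sox9 rose in part of the fits, and the member that fell was Hopx. The list gave 3 rises without older array 1 or 2 or young array 2.

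Of 17 tested chemokine and cytokine genes 4 rose and 1 fell (median -0.01), where 11.8% of all genes rose and 6.84% fell. Il33 was at 8.76, 8.59 and 7.72 in older and 6.88, 6.41 and 5.66 in young TEC, and Cx3cl1, the tethered chemokine fractalkine, at 10.28, 10.86 and 10.06 in older and 9.11, 9.29 and 8.92 in young TEC (1.30 ± 0.17, adjusted p = 9.19e-05). Both were called in all 6 leave-one-out fits, whereas Cxcl12, Csf1 and Cxcl2, which fell, were not. The medullary chemokine genes Ccl21a (0.03 ± 0.14) and Ccl19 (-0.39 ± 0.30) and the T-cell growth factor gene Il7 (0.32 ± 0.22) did not pass (adjusted p = 0.911, 0.373 and 0.307). Rises numbered 2 without older array 1 or young array 2 or 3, and falls numbered 3 without older array 3 and 0 without older array 2 or young array 1 or 2. Junction genes had 2 rises and 0 falls among 15 (median 0.03). Cldn6, a claudin of immature epithelia, rose by 1.11 ± 0.27 in all 6 leave-one-out fits, and Cdh3, P-cadherin, rose by 0.77 ± 0.24, a call lost without older array 2 (0.63), young array 1 (0.76) or young array 2 (0.71). Without older array 3 there were also 4 falls.

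Matrix genes had 6 rises and 1 fall among 29 tested members (median 0.19), where 11.8% of all genes rose and 6.84% fell. Col7a1, the anchoring fibril collagen beneath epithelia, was at 8.53, 9.39 and 8.48 in older and 7.15, 7.42 and 7.29 in young TEC (1.51 ± 0.32, adjusted p = 0.00401), and the metalloproteinase inhibitor gene Timp2 rose by 1.12 ± 0.16, both in all 6 leave-one-out fits. Mmp2, Mmp14, Lamc1 and Bgn rose and Mmp9 fell in part of them, with 2 rises without older array 2 or young array 2, 3 without young array 3, 4 without young array 1, 6 without older array 3 and 9 without older array 1. In lipid metabolism, 3 of 13 cholesterol genes rose and 0 fell (median 0.31), among them the sterol reductase gene Hsd17b7 by 0.98 ± 0.16. Of 11 adipocyte and fatty acid genes 3 rose and 1 fell (median 0.35). Pdk4, the kinase that diverts fuel use from glucose, was at 9.48, 9.04 and 8.93 in older and 8.40, 7.90 and 7.15 in young TEC (1.34 ± 0.30, adjusted p = 0.00561), and the elongase gene Elovl6 rose by 0.87 ± 0.17. Of 22 genes of oxidative defence 1 rose (median -0.08), the glutathione transferase gene Gstm1, at 12.12, 10.44 and 10.54 in older and 9.67, 9.55 and 9.39 in young TEC (1.49 ± 0.34, adjusted p = 0.00596). Hsd17b7, Pdk4, Elovl6 and Gstm1 were called in all 6 leave-one-out fits, while the cholesterol list held 1 rise without older array 2 or young array 2.

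Proliferation and growth genes gave few calls, where 11.8% of all genes rose and 6.84% fell. Of 25 cell cycle genes 1 rose (Ccnd3) and 1 fell (Tyms), with a median of -0.20, and neither was called in all 6 leave-one-out fits. The mean of the 25 was nevertheless lower on every older array (7.91 to 8.16) than on any young array (8.33 to 8.45). Without overlap between the groups, 5 of them were lower and 2 higher in older TEC, against 9.21% and 17.5% of all genes. Of 25 cyclin-dependent kinase inhibitor, p53 target and senescence genes 2 rose and 3 fell (median 0.02). The stress-induced gene Sesn1 was at 10.67, 10.64 and 10.45 in older and 9.41, 9.75 and 9.68 in young TEC (0.98 ± 0.23, adjusted p = 0.00723), and the other riser was Igfbp5. Cdkn2a, the locus of p16 and p19 that is used as a marker of senescence, was at 7.09, 5.97 and 8.34 in older and 7.94, 8.40 and 8.42 in young TEC. It fell by 1.12 ± 0.38, but this call held only without older array 3 (-1.73) and was lost without older array 1 (-1.10), older array 2 (-0.54) or any young array (-1.04 to -1.28). The falls of this list numbered 7 without older array 3 and 0 without older array 2 or young array 2. Of 9 imprinted and juvenile growth genes 3 fell (Dlk1, Cdkn1c and Igf2) and 0 rose (median -0.18), none in all 6 leave-one-out fits, with 5 falls without older array 3 and 0 without older array 2. Of 25 replication-dependent histone genes 3 fell and 0 rose (median -0.51), with 0 falls without young array 1 or 2 and 7 without older array 3. Yet 10 of these 25 lay lower on all older arrays than on any young array, and 0 lay higher on all. The mean of the 25 was 9.92 to 10.40 on the older and 10.58 to 10.75 on the young arrays.

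Calls in the ribosomal, oxidative phosphorylation and proteasome lists were all falls. Of 40 oxidative phosphorylation genes 3 fell (median -0.15), of 42 ribosomal protein genes 1 fell (median -0.06) and of 27 proteasome genes 3 fell (median -0.20), with 0 rises in these 3 lists and no call in all 6 leave-one-out fits, where 6.84% of all genes fell. The proteasome falls numbered 6 without older array 1 and 0 without young array 2. Of the 27, 10 lay lower on all older arrays than on any young array, as did 9.21% of all genes. The oxidative phosphorylation falls numbered 0 without older array 2 or young array 1. Of 17 unfolded protein response genes 3 fell (median -0.63), with 1 fall without older array 2 or young array 1 or 2 and 5 without older array 3. Of 22 heat shock and chaperonin genes 1 rose and 1 fell (median -0.17). The member that fell was the chaperonin gene Tcp1, at 9.05, 7.84 and 7.91 in older and 10.07, 10.36 and 9.68 in young TEC (-1.77 ± 0.32, adjusted p = 0.0013). Of 31 splicing factor genes 3 rose (median -0.05), of which the helicase gene Ddx17 (0.49 ± 0.12) was called in all 6 leave-one-out fits. For Ptbp1 and Hnrnpa0, the other 2, further probes pointed downwards. Other Ptbp1 probes differed by -0.65, -0.60, -0.49, -0.31, 0.16, 0.22 and 0.43, and that of Hnrnpa0 by -1.15. Of 23 autophagy and lysosome genes 2 rose and 3 fell (median -0.24), with the protease gene Ctsa at 0.82 ± 0.18 and Lamp1 at 0.54 ± 0.11 called in all 6 leave-one-out fits, while the falls numbered 0 without older array 2.

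Transcripts of other cells were lower in older TEC for leukocytes and smooth muscle. Of 6 tested pan-leukocyte markers 4 fell and 0 rose, where 6.84% of all genes fell and 11.8% rose. The mean of the 6 lay between 9.15 and 9.60 on the older and between 10.35 and 10.62 on the young arrays, so that the groups did not overlap. The falls numbered 2 without older array 2. Srgn, the granule proteoglycan serglycin, was at 8.59, 7.06 and 7.74 in older and 9.56, 9.72 and 9.35 in young TEC (-1.75 ± 0.40, adjusted p = 0.00606), and the GTPase gene Rac2 fell by 1.15 ± 0.22. Of 11 myeloid and granulocyte markers 6 fell and 0 rose, with means of 8.17 to 9.23 on the older and 9.79 to 9.82 on the young arrays. The cathelicidin gene Camp fell by 1.31 ± 0.29 and the complement gene C1qb by 1.27 ± 0.31. The myeloid falls numbered 3 without older array 2 or young array 2. The macrophage markers Csf1r, C1qa and Adgre1 lay below the cutoff in both groups, and Ptprc (CD45) was not analysed here. S100a8 stands in this list and among the Aire-dependent antigens. The part of these cells in the falls of tissue antigen, cornified and gut genes was not tested, and fewer cells of a type and less RNA per cell cannot be told apart in sorted bulk samples.

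Of 7 pericyte and smooth muscle markers 4 fell and 1 rose, where 6.84% of all genes fell and 11.8% rose. Acta2, smooth muscle actin, was at 11.69, 13.01 and 12.17 in older and 13.29, 13.14 and 13.62 in young TEC (-1.06 ± 0.26, adjusted p = 0.00868), and the riser was Notch3. Other Acta2 probes differed by -1.77, -2.24 and -1.38. The falls numbered 1 without young array 3 and 2 without older array 1 or young array 2. Their mean lay between 8.25 and 8.92 on the older and 8.93 and 9.18 on the young arrays. None of 8 fibroblast and 10 endothelial markers passed. The fibroblast mean lay between 7.83 and 8.89 on older and 7.94 and 8.07 on young arrays, with Col1a1 and Col3a1 below the cutoff in both groups, and it was highest on older array 3. Among 5 tested thymocyte markers Cd8b1 rose, although a further probe of it pointed downwards, and Rag1 and Dntt lay below the cutoff. Among 4 B-lineage markers Mzb1 rose and Cd79b fell, neither in more than 1 of the leave-one-out fits. Of 3 erythrocyte markers 2 fell, Hba-a1 by 1.58 ± 0.38 and Alas2 by 1.03 ± 0.33, whose call was lost without older array 2 (-0.49), young array 2 (-0.84) or young array 3 (-1.07). The mean of the 3 markers was 7.90 to 8.52 on the older and 9.10 to 9.51 on the young arrays.

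Sham-operated males of the same age offered arrays of their own, though any difference from young TEC shares the 3 young arrays with the comparison above. Sham TEC of days 4 and 7 (6 arrays) minus young TEC gave 475 called genes (5.74%), 315 higher (3.81%) and 160 lower (1.93%). For Otog the sham arrays averaged 10.44, 10.57 and 11.39 at days 4, 7 and 20, against 6.13 ± 0.26 in young TEC, and sham of days 4 and 7 minus young was 4.37. Kl averaged 8.13, 8.43 and 6.59, with 2.51 for days 4 and 7, and Chga 13.65, 13.89 and 10.91, with 2.27. Kl and Chga were thus high at days 4 and 7 and lower at day 20, whose arrays stood apart from all other TEC arrays on the first principal component (41.3 to 55.2, against 1.57 or less). Bmp4 (1.85), Kcnk1 (2.20), Snhg11 (1.64) and Gucy1a1 (1.71) passed at days 4 and 7 as well.

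Among the receptor and cytokine genes, sham of days 4 and 7 minus young was 0.58 for Egfr (adjusted p = 0.00781), -0.51 for Fgf21 (adjusted p = 0.0119), 0.80 for Socs3 (adjusted p = 0.0116) and -0.80 for Saa1 (adjusted p = 0.0137). It was 0.72 for Zfp36 (adjusted p = 0.00281) and 0.52 for Nfkbiz (adjusted p = 0.0513). Of the largest falls, Lypd1 passed in sham TEC (-1.61, adjusted p = 6.80e-05) and so did Htra4 (-1.23, adjusted p = 0.0394), whereas Dio1 (-1.02), Serpinb2 (-0.78), Gpx6 (-0.33) and Il23a (-0.46) did not. Of the medullary genes, Krtdap (-1.13, adjusted p = 0.0034) and Cnfn (-1.02, adjusted p = 0.0125) were set beside Ambp (-0.55, adjusted p = 0.0751) and Cd40 (-0.12, adjusted p = 0.634). Of 16 Aire-dependent antigens 1 fell in sham TEC, of 17 cornified genes 3 and of 19 gut genes 1, where 1.93% of all genes fell. Whether sham and unoperated older TEC differ in these lists was not tested.

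**Figure D5:**
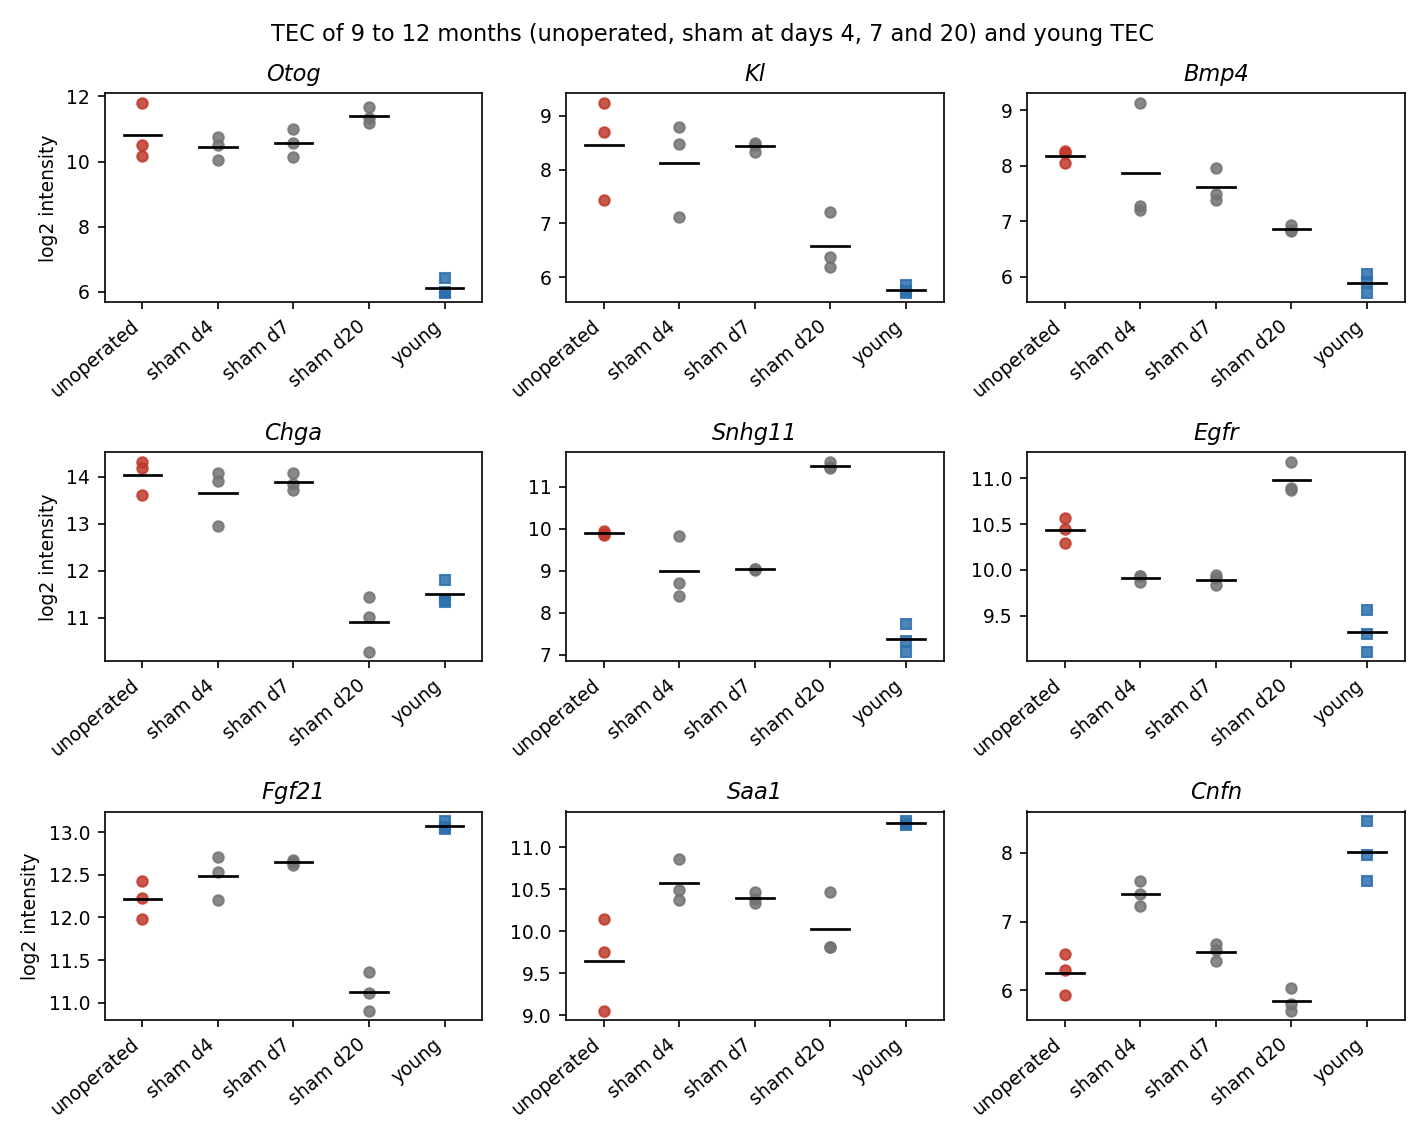
Points are log2 intensities of single arrays for 9 genes in older unoperated TEC, in sham TEC of the same age at days 4, 7 and 20 after surgery (sham d4, d7, d20), and in young TEC, with bars at the group means and a separate y axis per gene. Otog is high in every group of 9 to 12 months, while at day 20 of sham Kl averages 6.59 and Chga 10.91, below the young Chga mean of 11.504.

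The difference between older and young mice was also set against that in nonTEC, in 1 fit of all 41 arrays, with the deposited values of the fractions scaled apart. This fit covered 7873 genes with a group mean above 7.16, the median of the values measured in both fractions. Each gene was taken by its brightest probe over the 41 arrays. The older minus young difference differed between the fractions in 907 genes (11.5%). Gucy1a1 rose in TEC and was at 0.38 in nonTEC, a difference of 1.99 ± 0.33. Zfp36 was at 0.17 in nonTEC and the difference was 1.15 ± 0.20. Bmp4 was at 0.12 in nonTEC (adjusted p of the difference 0.000851) and Il33 at -0.05 (adjusted p 0.00586). Aire was at -0.24 in TEC, which did not pass, and at -2.26 in nonTEC (adjusted p of the difference 0.00182). For Egfr, at 1.12 in TEC and 0.67 in nonTEC (adjusted p 0.17), and Fgf21, at -0.87 in TEC and -1.19 in nonTEC (adjusted p 0.515), the difference between fractions did not pass. Kl, Otog and Kcnk1 were not part of this fit.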

How the data were processed

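RNA of sorted TEC and nonTEC was measured on Illumina arrays (41 arrays, 24 of TEC). The authors deposited normalized log2 intensities. The base is not stated in the sources used here and was taken as 2. limma is the only tool in the submitters' processing notes, while neither background correction nor a detection filter is recorded there. TEC array medians were all 6.68, and values were used as deposited.

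Of 24671 probes, 20825 had 1 listed gene, 11 several and 3835 none, and 21242 had values on all TEC arrays. The brightest probe stood for each of 12176 genes, and 8277 genes with a TEC group mean above 6.68, the median of all TEC values, were tested. Among 421 called genes with another probe above that level, 68 had one of opposite sign. The fit of 8 group means used R 4.3.3 and limma 3.58.1, a variance trend over mean level and 16 residual degrees of freedom. On data simulated from this fit over 8277 genes, 61% of log2 changes of 1 and 91% of changes of 2 were recovered, and 3.8% of calls were false. The simulated noise was independent, with the same spread on every array of a gene. These rates therefore do not cover the wider spread of the older arrays or arrays that differ as a whole.

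The comparison and the gene lists were chosen with earlier results of these data known. Named genes are the 15 largest called changes in each direction without overlap, leaving out clone names and predicted or uncharacterised loci, up to 4 called members of smallest p per list, a fixed set of thymic genes, and, for differences between fractions, 5 per direction. The text also gives some, but not all, of the other called members of the lists by name. Alternatives were other filters, scalings, probe rules and fits, a replicate block, sham arrays as the older group, and leaving out arrays.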

Additional observations from a re-analysis of the deposited data

Results flagged for a closer look

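The difference of older minus young TEC differed from that in nonTEC in 907 genes, tested as an interaction in limma over all 41 arrays. Of the 143 named genes in this fit 49 differed, 35 with the higher and 14 with the lower value in TEC. Named genes were mostly chosen by their TEC difference on the same arrays. By the naming rule only the 5 of smallest p per direction are given, first those with the higher value in TEC. Mzb1, a chaperone of plasma cells, was at 1.38 in TEC and -2.51 in nonTEC (TEC minus nonTEC 3.89). Its young TEC mean lay under the cutoff, and its call in TEC was lost in every leave-one-out fit. Lcn2 was at 1.29 and -1.71 (3.0), Gucy1a1 at 2.37 and 0.38 (1.99), Notch3 at 0.75 and -1.18 (1.93) and Zfp36 at 1.31 and 0.17 (1.15). The other 5 had the lower value in TEC: Htra4 at -1.89 and 0.21 (-2.10), Trib3 at -1.06 and 0.91 (-1.97), Igf2 at -0.57 and 1.26 (-1.83), the growth inhibitor gene Cdkn1c at -0.74 and 0.91 (-1.65) and Tgfbi at -0.74 and 0.54 (-1.28). Igf2 and Cdkn1c are both imprinted genes that are active in juvenile growth. The TEC calls of Notch3, Trib3, Igf2, Cdkn1c and Tgfbi were each lost in part of the leave-one-out fits. For Mzb1, Lcn2, Notch3, Igf2 and Cdkn1c the difference was larger in nonTEC than in TEC, regardless of sign.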

How the results depend on the processing

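Counts of called genes (1546 in all, 980 higher, 566 lower) moved with the arrays more than with the processing. Leaving out 1 array gave 770 (without young array 2) to 2409 (without older array 3) in all, 516 to 1137 higher and 254 to 1272 lower, and for the difference between fractions 570 (without young array 2) to 1263, against 907. Array weights gave 3214 (1684 higher, 1530 lower). A fit of only the 6 arrays gave 8 (8 and 0), and of the 12 arrays of both fractions 126 for the difference between fractions. Leaving out the 4 arrays that stand apart (older array 3, castrated day 4 arrays 2 and 3, sham day 4 array 3) gave 2985 in all, 1528 lower and 1684 between fractions. Sham arrays of days 4 and 7 as the older group gave 475 (315 and 160), and all sham days gave 1164 lower. Added after seeing the data, leaving out the day 20 arrays gave 861 (579 and 282), and older arrays 1 and 2 alone, without the arrays that stand apart or those of day 20, gave 1129 lower. Other filters, scalings, probe means, trend settings and a fit of 41 arrays kept each count within 1.5 times.

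Same-numbered older and young arrays had deviations correlated at -0.09, -0.10 and 0.26, and differently numbered ones at -0.24 to 0.28. Such values from 3 arrays a group cannot show whether replicate numbers pair the samples. With the number as a replicate block, the fit of 6 arrays gave 0 calls (0 higher, 0 lower), and the fit of 24 arrays, added later, gave 1736. Of the 169 named genes, sign changed for Ptbp1 (-0.12) and Hnrnpa0 (-0.27) with the mean of all probes, for Klk1b27 (0.007), Ifit2 (-0.12) and Abcg1 (-0.0037) with sham of days 4 and 7, and for Ifit2 (-0.0845), Hsd17b4 (-0.0139), Tcp1 (0.19) and H3c13 (0.26) with all sham days. The cause was not tested. Of the 150 named genes with a call, 7 were also called with the 6 arrays alone and 143 were not.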

Other observations

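Other genes were chosen after their values were seen, from the called genes that held in all 6 leave-one-out fits. They are given as single values, not as a group with a common change. The cartilage matrix gene Matn1 was at 6.66, 7.35 and 8.59 in older and 9.28, 9.22 and 9.24 in young TEC and fell by 1.72 ± 0.33. The neuronal synuclein gene Sncg fell by 1.52 ± 0.25, the gut hormone genes Sct and Pyy by 1.39 ± 0.24 and by 1.20 ± 0.29, and the hypothalamic hormone gene Trh by 1.15 ± 0.27. The heart peptide gene Nppa fell by 1.25 ± 0.28, the muscle genes Pvalb and Csrp3 by 1.30 ± 0.18 and by 1.21 ± 0.29, the bone gene Bglap by 1.35 ± 0.30 and the liver apolipoprotein gene Apoa2 by 1.11 ± 0.18. They were not on the list of Aire-dependent antigens, and whether they depend on Aire was not measured here.

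Further single genes that rose, also picked by their values, have roles in vesicle transport, whereas the neuroendocrine granule list had 1 rise and 3 falls among 18 tested members (median -0.60). The Rab effector gene Sytl4, which docks secretory granules, was at 8.03, 5.94 and 7.89 in older and 5.09, 5.61 and 5.52 in young TEC and rose by 1.88 ± 0.43. The vesicle priming gene Unc13b rose by 1.78 ± 0.21, the synaptic scaffold gene Lin7a by 1.74 ± 0.20, the Golgi Rab gene Rab6b by 1.60 ± 0.24 and the vesicle membrane gene Syngr1 by 1.36 ± 0.29. The young means of Sytl4, Lin7a, Rab6b and Syngr1 lay under the cutoff for testing, and so did that of Gli2, given below, and the older mean of Trh. In sham TEC of days 4 and 7 minus the same young arrays these were 1.70 for Sytl4, 1.43 for Unc13b, 1.32 for Lin7a, 0.90 for Rab6b and 1.14 for Syngr1. Signalling genes outside the lists rose as well: the Hedgehog effector gene Gli2 by 1.56 ± 0.27, the proprotein convertase gene Pcsk6 by 1.80 ± 0.18 and the TGF-beta co-receptor gene Tgfbr3 by 1.88 ± 0.40.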
